A study of Homo sapiens with 4 samples.

Results

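The genes described here are the metalloproteinases of the MMP, ADAM and ADAMTS families, the related ADAMTS-like (ADAMTSL) proteins and the tissue inhibitors of metalloproteinases (TIMPs). They were taken from the count table by gene symbol (MMP, ADAM or ADAMTS followed by a number, with A or B allowed after an MMP number, ADAMTSL followed by 1 digit, and TIMP1 to TIMP4), a rule that reads no measured value. This gave 47 of 27452 genes: 16 MMP, 10 ADAM, 13 ADAMTS, 4 ADAMTSL and 4 TIMP genes. The libraries are RNA sequencing of cells labelled HepG2, an established human hepatoma line, carrying either a control short hairpin RNA (Ctrl shRNA, 2 libraries) or a hairpin against the transcription factor STAT3 (STAT3 shRNA, 2 libraries). The comparison addresses which genes differ when STAT3 is lowered. Both groups carry a hairpin and were grown in the same serum-containing medium. Whether the 2 libraries in each group are separate cultures, clones or hairpins is not stated in the labels, so the p-values below reflect variation among these 4 libraries and possibly no more than technical variation.

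Metalloproteinases are zinc-dependent enzymes made as inactive precursors. MMPs are secreted or membrane-bound and cut collagens, laminins and other matrix proteins, ADAMs are mostly membrane proteins that release the outer parts of growth factors, cytokine receptors and adhesion molecules, and ADAMTS enzymes are secreted and cut proteoglycans, procollagens and von Willebrand factor. ADAMTSL proteins share the accessory domains of ADAMTS enzymes but lack the protease domain. TIMPs block the active site, and in liver the balance between MMPs and TIMPs is known for its part in the turnover of scar matrix.

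Total counts ran from 17694642 to 25862027 reads per library. STAT3 was at 245.03 and 244.3 CPM (reads scaled to library size, with TMM factors) under Ctrl shRNA and at 34.7 and 36.1 CPM under STAT3 shRNA. Of 10 hepatocyte markers, 4 are read here and 6 were not analysed here. Albumin (ALB) had 0 reads in both controls and 0 and 3 under STAT3 shRNA, and apolipoprotein A1 (APOA1) had 0 and 0 against 1 and 2. Transferrin (TF) fell from 2.01 and 2.14 to 0.900 and 0.435 CPM, and the liver transcription factor HNF4A rose from 1.27 and 1.78 to 7.20 and 4.95 CPM. The summed level of these 4 hepatocyte markers was 3.29 to 3.92 CPM in Ctrl shRNA and 5.65 to 8.14 CPM under STAT3 shRNA. ALB and APOA1, defining markers of the labelled tissue, were thus at or near 0. TF (38 and 41 reads against 24 and 8) and HNF4A (24 and 34 against 192 and 91) were detected at low levels. These 4 markers give little sign of the labelled tissue, and the identity of the cells was not tested. The values below describe the libraries labelled HepG2. Summed fibroblast or stellate cell markers (6 of 8 in the table, none at 0) were 53.0 and 60.8 CPM in Ctrl shRNA and 36.1 and 36.0 CPM under STAT3 shRNA. COL1A1, most of the sum in Ctrl shRNA, fell from 38.1 and 43.2 to 15.0 and 14.3 CPM. COL3A1 had 1 and 8 reads against 1 and 0. DCN went the other way, from 10.4 and 11.3 to 14.6 and 15.3 CPM. PDGFRB (4.24 and 5.70 against 5.78 and 5.54 CPM) did not pass. LUM (0 and 2 reads against 7 and 6) and THY1 (3 and 1 against 11 and 9) were not tested. Summed leukocyte markers (4 of 6, with ITGAM at 0 reads) were 10.7 and 15.2 against 24.2 and 27.9 CPM, nearly all of it CD68. CD14 (3 and 4 reads against 2 and 1) and CSF1R (2 and 11 against 3 and 0) had lower means under STAT3 shRNA and were not tested. Summed endothelial markers (3 of 5) lay between 1.20 and 1.75 CPM in every library, but the genes did not move together. CDH5 (33 and 20 reads against 21 and 16) had a lower mean CPM under STAT3 shRNA and did not pass. VWF (0 and 3 reads against 10 and 15) and TEK (0 and 0 against 3 and 1) had higher means and were not tested. The part of these markers in the results below was not tested, and in bulk RNA fewer cells of a type and less RNA per cell cannot be told apart.

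Of the 47 genes, 34 passed the low-count filter and were tested, and 17 of these changed at an adjusted p under 0.05 (two-sided quasi-likelihood test in edgeR, with Benjamini-Hochberg adjustment over 15199 genes). Of all tested genes, 35.5% changed. With STAT3 shRNA, 9 members were higher (16.8% of all tested genes were) and 8 were lower (18.7%). Both libraries of one group lay above both of the other in 27 of the 34, or 79.4%, against 70.8% of all tested genes. Changes of at least 2-fold were seen in 7 of the 34, against 8.64% of all tested genes. A gene can pass the filter through the group in which it is high, so these shares describe the genes that passed and are no support for a change of the families as a whole. The median log2 fold change (STAT3 shRNA over Ctrl shRNA) was 0.17 over the 34 members and 0.02 over all tested genes. When the deposited FPKM were tested instead, with limma-trend on log2(FPKM + 1), ADAM15, ADAM17, ADAM22, ADAMTS1, ADAMTS5, ADAMTS6, ADAMTSL5, MMP13 and MMP14 no longer passed and ADAMTS16 changed sign without passing. With log2(FPKM + 0.1), ADAMTS6 did pass (adjusted p = 0.0390, limma-trend), and the other genes named in the last sentence did not.

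**Figure D1:**
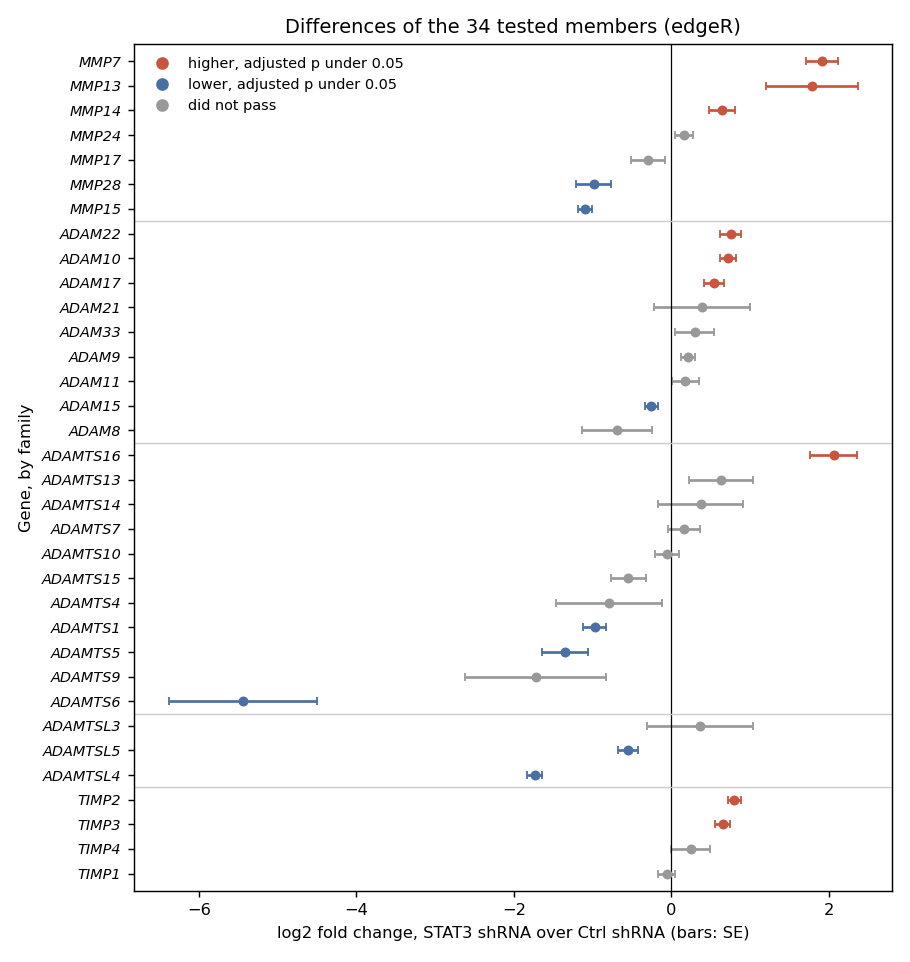
Log2 fold change (STAT3 shRNA over Ctrl shRNA, horizontal axis) of the 34 tested genes, grouped by family, with bars for the SE, red points for genes that rose, blue for genes that fell and grey for those that did not pass. TIMP2 and TIMP3 lie to the right, ADAMTSL4 and ADAMTSL5 to the left, and MMPs and ADAMTS genes on both sides of 0.

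The other 13 members were not tested. None had more than 13 reads in any library or more than 37 reads in all 4, and MMP1 and MMP23A had 0 reads throughout. The gelatinases, which cut denatured collagen and basement membrane collagen, were among them: MMP2 had 0 and 0 reads in Ctrl shRNA and 2 and 2 in STAT3 shRNA, and MMP9 had 3 and 0 against 0 and 0. For MMP2, MMP9, the interstitial collagenase MMP1 and the stromelysin-3 gene MMP11 (1 and 2 reads against 0 and 1), a difference was not detectable at this depth. Over a group, 3 reads corresponded to 0.0790 CPM in Ctrl shRNA and 0.0666 CPM under STAT3 shRNA. Such floors cover counting error only.

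Compared per transcript length with the authors' FPKM, the inhibitor TIMP1 was the most abundant member. It was at 300.1 and 384.5 FPKM in Ctrl shRNA and 319 and 339 FPKM in STAT3 shRNA. ADAM15 followed at 157 and 195 against 144 and 144 FPKM, then TIMP2 at 55.0 and 50.9 against 100.6 and 100.6 FPKM, and ADAM9 at 44.4 and 40.3 against 51.2 and 52.8 FPKM. The order of these 4 was the same in both groups by their means. TIMP2 and ADAM9 were closer to each other in the Ctrl shRNA libraries than in the STAT3 shRNA libraries.

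Among secreted MMPs, MMP7 rose and MMP28 fell. MMP7 (ENSG00000137673.9; chromosome 11, 102520508 to 102530753, minus strand), or matrilysin, is a small epithelial MMP that cuts matrix proteins and sheds surface proteins. It had 82 and 130 reads under Ctrl shRNA and 589 and 365 under STAT3 shRNA, or 4.35 and 6.80 against 22.1 and 19.8 CPM. Both STAT3 shRNA libraries were above both controls. Its means were 5.57 ± 1.73 and 21.0 ± 1.60 CPM (SD, n = 2 each), a 3.76-fold rise with a log2 fold change of 1.91 ± 0.20 (SE; 95% interval 1.45 to 2.37; adjusted p = 0.000256, edgeR). MMP13 (ENSG00000137745.12; chromosome 11, 102942995 to 102955734, minus strand), collagenase 3, lies in the same MMP cluster with the silent MMP1 between them. It had 5 and 7 reads against 21 and 27, or 0.265 and 0.366 against 0.788 and 1.47 CPM. The groups did not overlap, but the counts were low, and the adjusted p of 0.0405 (edgeR; log2 fold change 1.79 ± 0.58) was above the threshold whenever 1 library was left out (0.0879 to 0.390) and with DESeq2 (0.123). MMP28, or epilysin, an MMP of skin and other epithelia, fell from 8.01 and 11.3 to 4.43 and 5.38 CPM. Its log2 fold change was -0.98 ± 0.22 (adjusted p = 0.00895, edgeR; 0.0613 without STAT3 shRNA replicate 1). The span of MMP28 is shared with TAF15, an opposite-strand gene with far more reads (17311 against 584) that fell by 0.48 in log2 terms, and the use of strand in counting is not given in the sources used here.

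Membrane-type MMPs carry a transmembrane domain or a lipid anchor. MMP15 (ENSG00000102996.5; chromosome 16, 58025566 to 58046901, plus strand), or MT2-MMP, was at 135 and 153 CPM under Ctrl shRNA and at 67.5 and 66.9 CPM under STAT3 shRNA. The groups were well apart, with a 2.14-fold fall and a log2 fold change of -1.10 ± 0.09 (SE; adjusted p = 8.22e-05, edgeR). MMP14 (ENSG00000157227.13; chromosome 14, 22836557 to 22849027, plus strand), or MT1-MMP, which cuts fibrillar collagen and, with TIMP2, activates the precursor of MMP2, moved the other way. It went from 24.0 and 35.4 to 46.2 and 46.7 CPM, a 1.56-fold rise (log2 fold change 0.65 ± 0.16, adjusted p = 0.0137, edgeR). The Ctrl shRNA libraries were far apart: leaving out replicate 1 of that group gave a log2 fold change of 0.36, and leaving out replicate 2 gave 0.95. MMP24 (MT5-MMP) was at 35.5 and 42.2 against 44.5 and 42.3 CPM and did not pass (adjusted p = 0.284, edgeR). It passed without Ctrl shRNA replicate 2 (0.0257) and with an offset for GC content (0.00312), and the opposite-strand gene MMP24OS holds 64.0% as many reads. The lipid-anchored MMP17 (MT4-MMP) was at 4.77 and 5.65 against 4.39 and 4.08 CPM and did not pass either (0.317), and MMP25 had at most 8 reads in a library.

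Per length, by the deposited FPKM, the order of the MMPs differed between the groups. In the Ctrl shRNA libraries MMP15 was at 34.6 and 38.5 FPKM, MMP14 at 7.96 and 17.2 FPKM and MMP7 at 4.92 and 7.81 FPKM, so MMP15 was the highest in both. In the STAT3 shRNA libraries MMP7 was at 25.6 and 23.6 FPKM, MMP14 at 21.6 and 21.4 FPKM and MMP15 at 18.2 and 18.2 FPKM. The values of these 3 genes did not overlap within the STAT3 shRNA group, and MMP15 was the lowest of them. The order itself was not tested.

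**Figure D2:**
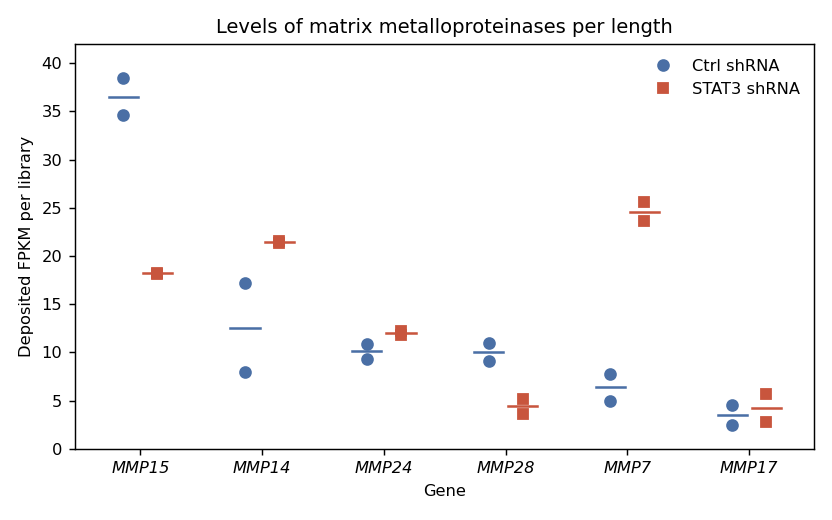
Deposited FPKM (vertical axis) of 6 MMP genes in each library, circles for Ctrl shRNA, squares for STAT3 shRNA and short lines for means of 2 libraries. MMP15 is highest in the Ctrl shRNA libraries (34.6 and 38.5 FPKM), and MMP7 in the STAT3 shRNA libraries (25.6 and 23.6 FPKM).

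Among the 9 tested ADAMs, ADAM10, ADAM17 and ADAM22 rose, ADAM15 fell and 5 did not pass. ADAM10 (ENSG00000137845.15; chromosome 15, 58588807 to 58749978, minus strand) cuts Notch receptors, cadherins and the amyloid precursor. It was at 64.4 and 53.4 CPM under Ctrl shRNA and at 97.2 and 96.6 CPM under STAT3 shRNA. The groups did not overlap, and the rise was 1.64-fold (log2 fold change 0.72 ± 0.10, SE; adjusted p = 0.0011, edgeR). ADAM17 (ENSG00000151694.13; chromosome 2, 9488486 to 9556732, minus strand), the enzyme that releases TNF, EGF receptor ligands and the soluble IL-6 receptor, went from 30.4 and 23.8 to 39.7 and 39.2 CPM, a log2 fold change of 0.54 ± 0.13 (adjusted p = 0.0102, edgeR). Without STAT3 shRNA replicate 1 or replicate 2 its adjusted p was 0.0617 and 0.0540. IAH1, on the opposite strand over part of the same span, had 116.2% as many reads as ADAM17 and rose by 0.30 (adjusted p = 0.0367, edgeR), so reads of the 2 genes may not be separated. ADAM9, another broad sheddase, was at 173 and 157 against 189.9 and 192 CPM and did not pass (adjusted p = 0.0833, edgeR). It passed with upper-quartile scaling (0.0411) and without Ctrl shRNA replicate 1 (0.00857), and its log2 fold change of 0.21 became 0.01 with a GC offset.

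ADAM22, a protein without protease activity that serves as a receptor for LGI1 in neurons, rose from 10.9 and 10.4 to 18.8 and 17.1 CPM (log2 fold change 0.76 ± 0.14, adjusted p = 0.00326, edgeR). ADAM15, whose disintegrin domain binds integrins, was the most abundant ADAM and had the smallest of the 17 changes. It was at 346 and 384 CPM under Ctrl shRNA and at 309 and 304 CPM under STAT3 shRNA, and its log2 fold change of -0.25 ± 0.08 (adjusted p = 0.0457, edgeR) was not called without STAT3 shRNA replicate 1 (0.268), without replicate 2 (0.313) or with upper-quartile scaling (0.0898). After a GC offset, its log2 fold change was 0.0760 (0.388). The remaining tested ADAMs, ADAM8, ADAM11, ADAM21 and ADAM33, did not pass, with levels from 0.261 to 8.89 CPM.

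**Figure D3:**
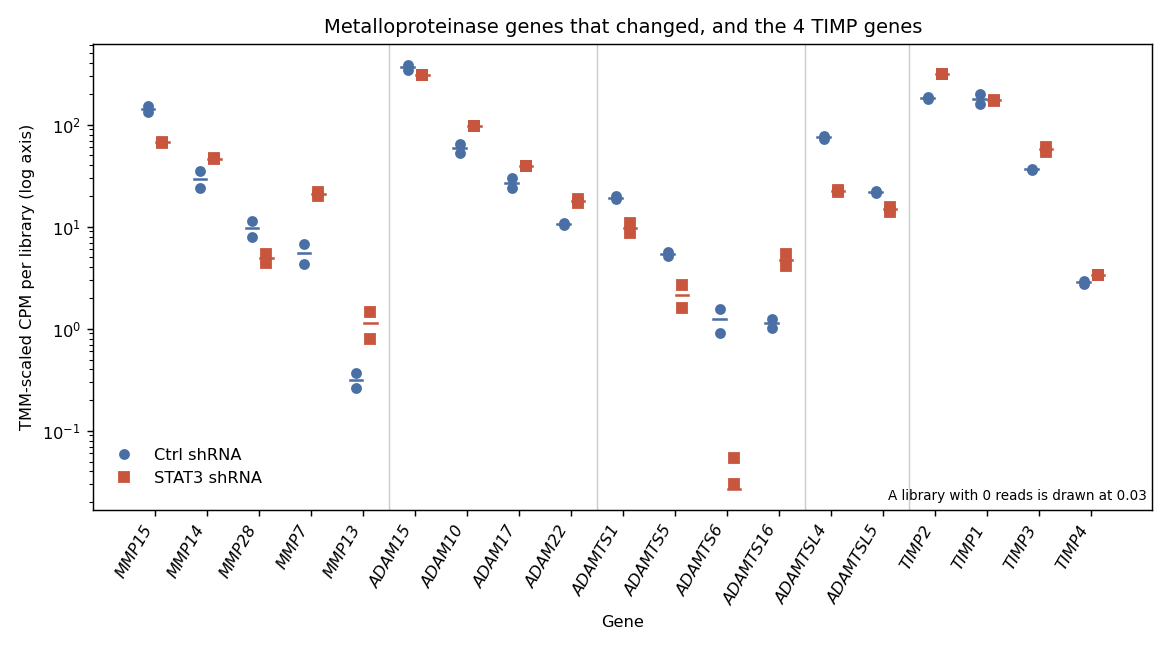
TMM-scaled CPM (vertical axis, logarithmic) in each library for the 17 members that changed and the 4 TIMP genes, circles for Ctrl shRNA, squares for STAT3 shRNA and short lines for means. The groups do not overlap for any of the 17, while the TIMP1 libraries of STAT3 shRNA (172 and 174 CPM) lie between those of Ctrl shRNA (161 and 199 CPM).

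Of the ADAMTS genes, ADAMTS1 and ADAMTS5 fell together. Both enzymes cut the proteoglycans aggrecan and versican, and their genes lie side by side on the minus strand of chromosome 21 (26835747 to 26845409 and 26917912 to 26966513), 72.5 kb apart with 0 genes of the table between them. ADAMTS1 (ENSG00000154734.15) was at 18.6 and 19.97 CPM under Ctrl shRNA and at 10.8 and 8.70 CPM under STAT3 shRNA. ADAMTS5 (ENSG00000154736.6) was at 5.62 and 5.23 against 1.61 and 2.72 CPM. For both genes each STAT3 shRNA library was below each control. The falls were 1.97-fold for ADAMTS1 (log2 fold change -0.97 ± 0.15, adjusted p = 0.00157, edgeR) and 2.54-fold for ADAMTS5 (-1.35 ± 0.29, adjusted p = 0.0078, edgeR, and 0.0713 without STAT3 shRNA replicate 1). On the FPKM scale ADAMTS1 did not pass, with Ctrl shRNA libraries at 12.9 and 5.22 FPKM.

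ADAMTS6 (ENSG00000049192.15; chromosome 5, 65148736 to 65481920, minus strand), a relative of ADAMTS10 that acts on extracellular matrix, was nearly lost. It had 17 and 30 reads under Ctrl shRNA and 0 and 1 under STAT3 shRNA. The ratio of these reads, scaled for depth, was 55.7 with a 95% counting interval of 9.53 to 2248 (exact binomial), and the adjusted p was 0.00266 (edgeR). The fitted log2 fold change of -5.45 ran from -7.74 to -4.35 without STAT3 shRNA replicate 2 and replicate 1, so its size is poorly set by these counts. ADAMTS16 (ENSG00000145536.15; chromosome 5, 5140330 to 5320304, plus strand) moved the other way in counts, from 19 and 24 reads to 111 and 99. That is 1.01 and 1.25 against 4.16 and 5.38 CPM, a 4.18-fold rise (log2 fold change 2.06 ± 0.30, adjusted p = 0.00119, edgeR). The deposited FPKM of ADAMTS16 go against this: 11.96 and 0.290 FPKM in the Ctrl shRNA libraries, which had similar read numbers, and 1.01 and 1.25 FPKM in the STAT3 shRNA libraries. The direction of ADAMTS16 therefore differs between the 2 deposited tables, and 1 Ctrl shRNA value stands above the other 3.

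The other 7 tested ADAMTS genes did not pass, although ADAMTS15 passed without Ctrl shRNA replicate 2, ADAMTS9 without STAT3 shRNA replicate 1 and ADAMTS7 with the GC offset. ADAMTS10 was the most abundant of them at 11.6 and 14.5 against 12.6 and 12.6 CPM. ADAMTS15, a further versican-cutting enzyme, was at 7.79 and 6.64 against 5.74 and 4.08 CPM (adjusted p = 0.0888, edgeR). ADAMTS9 had 11 and 16 reads against 10 and 0, and ADAMTS13, the enzyme that cuts von Willebrand factor and is made in liver stellate cells, had 17 and 24 against 51 and 26. The spans of ADAMTS7 and ADAMTS13 are shared with opposite-strand genes that have many times their reads (MORF4L1 and REXO4), so their values are uncertain.

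The ADAMTSL genes that passed were both lower. ADAMTSL4 (ENSG00000143382.14; chromosome 1, 150549369 to 150560937, plus strand), which binds fibrillin-1 and is needed to hold the eye lens in place, had the smallest p-value of all 34 members. It was at 72.6 and 77.7 CPM under Ctrl shRNA and at 23.0 and 22.1 CPM under STAT3 shRNA, with no overlap. The means of 75.2 ± 3.61 and 22.6 ± 0.685 CPM (SD, n = 2 each) gave a 3.33-fold fall, a log2 fold change of -1.74 ± 0.10 (SE; 95% interval -1.95 to -1.52; adjusted p = 1.08e-05, edgeR). ADAMTSL5, another fibrillin-binding protein, went from 21.3 and 22.3 to 15.8 and 13.9 CPM (-0.55 ± 0.12, adjusted p = 0.009, edgeR). That call was lost without STAT3 shRNA replicate 2 (0.109) and with a GC offset (0.0931).

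Of the inhibitors, TIMP2 and TIMP3 rose, while TIMP1 and TIMP4 did not pass. TIMP2 (ENSG00000035862.12; chromosome 17, 78852977 to 78925387, minus strand), the inhibitor that also links MMP14 to the MMP2 precursor, was at 185 and 177 CPM under Ctrl shRNA and at 318 and 314 CPM under STAT3 shRNA. The groups were far further apart than the libraries within them, with a 1.74-fold rise (log2 fold change 0.80 ± 0.08, SE; adjusted p = 0.00018, edgeR). TIMP3 (ENSG00000100234.11; chromosome 22, 32801701 to 32863043, plus strand), which is bound to matrix and also inhibits ADAM17 and ADAMTS enzymes, went from 37.1 and 36.0 to 60.8 and 54.0 CPM, 1.57-fold (0.65 ± 0.10, adjusted p = 0.00145, edgeR). TIMP1, the soluble inhibitor best known as a serum marker of liver fibrosis, was at 161 and 199 against 172 and 174 CPM (log2 fold change -0.06 ± 0.11; 95% interval -0.30 to 0.18; adjusted p = 0.704, edgeR). Its 2 Ctrl shRNA libraries lay on either side of the STAT3 shRNA libraries, and leaving out the first control gave -0.24 (0.0112) and leaving out the second gave 0.10 (0.293). TIMP4 was at 2.92 and 2.77 against 3.38 and 3.37 CPM (adjusted p = 0.484, edgeR).

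Over all tested genes, the log2 fold change was lower where the longest transcript was richer in GC (rho -0.34, Spearman, computed across genes and not across independent samples). The Ctrl shRNA libraries also differed from each other along GC content (rho -0.47 for replicate 1 over replicate 2). The 9 members that rose had 38.3% to 58.9% GC (median 41.3%), and the 8 that fell had 40.8% to 66.0% (median 62.6%). With an offset for GC content in each library, 14 of the 17 calls were kept, ADAM15, ADAMTSL5 and MMP13 were lost, and ADAM11, ADAMTS7 and MMP24 were gained. With that offset 11 members were higher and 6 lower, in place of 9 and 8.

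The stretches before the start of 3 members are shown because the calls of MMP7, TIMP3 and ADAMTSL4 held under every alternative tried and the stretches differ in composition. They are from RefSeq (GRCh38.p14), run 5′ to 3′ towards the gene, and end at the outermost start that GENCODE 29 gives. Capitals mark the motif TGANTCA, which the transcription factor AP-1 binds. MMP7 is from chr11:102530754-102530997 (minus strand, 33.6% GC), TIMP3 from chr22:32801455-32801700 (plus strand, 72.0% GC) and ADAMTSL4 from chr1:150549158-150549368 (plus strand, 84.4% GC).
MMP7: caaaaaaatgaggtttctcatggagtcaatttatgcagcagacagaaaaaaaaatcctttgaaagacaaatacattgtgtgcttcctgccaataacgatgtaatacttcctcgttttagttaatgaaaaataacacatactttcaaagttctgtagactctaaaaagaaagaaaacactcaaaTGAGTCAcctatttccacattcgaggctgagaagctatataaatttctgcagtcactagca
TIMP3: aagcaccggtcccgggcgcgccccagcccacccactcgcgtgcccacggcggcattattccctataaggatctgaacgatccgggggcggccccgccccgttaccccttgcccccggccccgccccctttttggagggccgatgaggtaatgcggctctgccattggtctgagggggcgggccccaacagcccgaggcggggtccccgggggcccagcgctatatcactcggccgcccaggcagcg
ADAMTSL4: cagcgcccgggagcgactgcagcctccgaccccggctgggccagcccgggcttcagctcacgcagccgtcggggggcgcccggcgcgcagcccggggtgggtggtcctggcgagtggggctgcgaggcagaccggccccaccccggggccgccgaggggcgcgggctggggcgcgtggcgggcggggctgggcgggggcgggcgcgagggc

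Among the 47 members, 26 matched RefSeq, with 27 stretches of 250 bases before a start. The AP-1 motif TGANTCA, which reads the same on both strands, was in 1 of the 27, that of MMP7, starting 67 bases before the RefSeq start, against 6.57% of 35116 stretches of all genes. The STAT motif TTCNNNGAA, also the same on both strands, was in 0 of the 27 against 6.57%, and the TCF/LEF motif CTTTGAT or its complement ATCAAAG in 0 against 2.26%. A match is a description of letters, and no match says only that these letters are not in this window.

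Genes beside a member on its chromosome gave a local comparison, as a description. Of the 20 tested genes nearest to ADAM17 (10 on each side, chromosome 2, 6865806 to 10448504), 12 rose and 1 fell, with a median log2 fold change of 0.55 against 0.54 for ADAM17 itself. Around ADAM10, 8 rose and 0 fell, with a median of 0.31 against 0.72. Around ADAM15, 11 fell and 1 rose, with a median of -0.38 against -0.25. The changes of ADAM17 and ADAM15 were thus no larger than the middle change of their neighbours. TIMP2 went against its surroundings, where 11 of 20 genes fell, 1 rose and the median was -0.37. So did ADAMTSL4, with 7 genes higher and 2 lower around it and a median of 0.24. For ADAMTS1 and ADAMTS5 the median of the genes beside them was 0.0031, with 5 higher and 4 lower. Each of these sets includes the other gene of the pair, which fell, and the sets share most of their genes. Around MMP7, 7 genes rose, MMP13 among them, and 0 fell, with a median of 0.23 against 1.91.

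**Figure D4:**
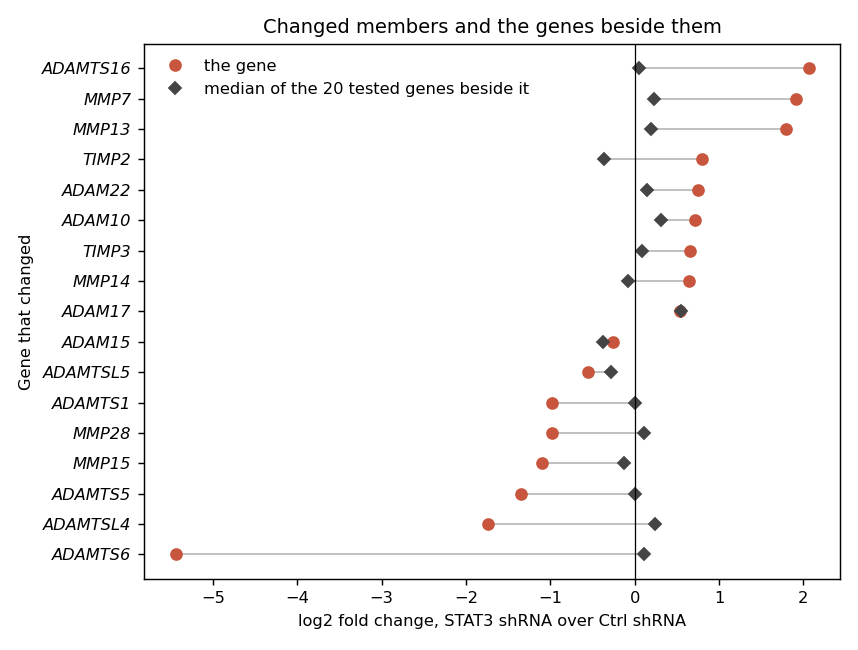
Log2 fold change (horizontal axis) of the 17 changed members (red circles) and the median of the 20 tested genes beside each (dark diamonds). The 2 marks coincide for ADAM17 (0.54 and 0.55) and lie on opposite sides of 0 for TIMP2 (0.80 and -0.37).

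Lists of related genes were read from the same fit, and their counts are given beside the 35.5% of all tested genes that changed. The lists were picked with earlier results of these data known. Their counts are therefore no support for more change in a list than elsewhere, and such a difference was not tested. Of other metzincins, the wider family of these proteases, 4 were tested and 2 fell. Pappalysin-1 (PAPPA), which cuts IGF-binding proteins, went from 5.46 and 5.28 to 0.188 and 0.217 CPM (log2 fold change -4.70 ± 0.37, adjusted p = 5.69e-05, edgeR). BMP1, the procollagen C-proteinase, went from 106 and 115 to 71.6 and 69.0 CPM (-0.65 ± 0.09). The related TLL1 was at 15.5 and 14.4 against 17.3 and 17.4 CPM and did not pass (adjusted p = 0.201, edgeR).

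Of 15 tested genes listed around metalloproteinase activation and inhibition outside the TIMPs, 3 rose, 5 fell and 7 did not pass (median -0.10). Not all of them activate a precursor or inhibit a metalloproteinase directly. BSG and LRP1, which are among those that fell, were lower by 0.42 and 0.44 (log2). The proprotein convertase FURIN, which removes the inhibitory propeptide of ADAMs and membrane-type MMPs, went from 139.6 and 169.6 to 98.9 and 98.1 CPM (-0.65 ± 0.10). PCSK6, another convertase, rose from 63.4 and 65.9 to 106 and 103 CPM. The urokinase receptor PLAUR, which focuses plasminogen activation at the cell surface, fell by 1.01 (log2), and the protease inhibitor SERPINE2 rose by 1.59, from 4.56 and 2.82 CPM. RECK, a membrane-anchored inhibitor of MMPs, rose from 7.53 and 5.59 to 10.3 and 11.7 CPM. Without STAT3 shRNA replicate 2 there were 4 calls in this list in place of 8.

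Of 16 tested partners of ADAM10 and ADAM17, 5 rose, 3 fell and 8 did not pass (median 0.09). The tetraspanin TSPAN15, which steers ADAM10 to N-cadherin, rose from 5.51 and 7.01 to 13.99 and 13.4 CPM (log2 fold change 1.13 ± 0.17). The adaptor SH3KBP1 and the sorting protein PACS2 rose by 0.85 and 0.65, and the tetraspanins TSPAN14 and TSPAN17 fell by 0.42 and 0.41. Without either STAT3 shRNA library there were 3 calls in this list in place of 8.

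Of 33 tested membrane proteins known as substrates of shedding, 13 rose, 11 fell and 9 did not pass (median 0.25). The receptor kinase MET rose from 122 and 106 to 250.4 and 255 CPM (1.15 ± 0.09), and the ADAM17 substrate TGFA, an EGF receptor ligand, from 4.03 and 3.87 to 9.19 and 7.88 CPM. The adhesion molecule L1CAM and the TNF receptor TNFRSF1A fell by 0.79 and 0.86. IL6ST, the shared receptor chain of the IL-6 family, went from 75.9 and 57.0 to 87.9 and 89.2 CPM (adjusted p = 0.033, edgeR). This list had 14 and 10 calls without STAT3 shRNA replicate 1 and replicate 2.

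Of 22 tested matrix proteins, 7 rose, 10 fell and 5 did not pass (median -0.26). Laminin alpha 1 (LAMA1) rose from 26.4 and 30.2 to 324 and 296 CPM (3.45 ± 0.10). Fibronectin (FN1) fell from 10.1 and 10.6 to 0.750 and 0.978 CPM (-3.59 ± 0.24), and the basement membrane collagens COL4A1 and COL4A2 fell by 0.94 and 0.64. The proteoglycan FMOD rose from 0.106 and 0.105 to 8.37 and 7.88 CPM, from 2 reads in each Ctrl shRNA library. Without STAT3 shRNA replicate 2 there were 11 calls in this list in place of 17.

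Of 16 tested partners of ADAMTS and ADAMTSL proteins, 5 rose, 2 fell and 9 did not pass (median 0.13). Fibrillin-1 (FBN1), the microfibril protein that ADAMTSL4 binds, rose from 50.8 and 44.9 to 141 and 124 CPM (1.47 ± 0.10, adjusted p = 3.16e-05, edgeR), whereas ADAMTSL4 fell. FBN2 rose by 0.50 and the ADAMTS-like protein papilin (PAPLN) by 0.95, and COL1A1 fell by 1.47. Of 25 tested transcription factors known to act at MMP promoters, 8 rose, 7 fell and 10 did not pass (median 0.09). The AP-1 subunits FOSB and FOS rose by 2.28 and 0.91, and the ETS factors ETV5 and ETV4 fell by 1.55 and 1.19. JUNB and JUND, also AP-1 subunits, fell by 0.84 and 0.42. There were 8 calls in this list without either STAT3 shRNA library in place of 15.

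**Figure D5:**
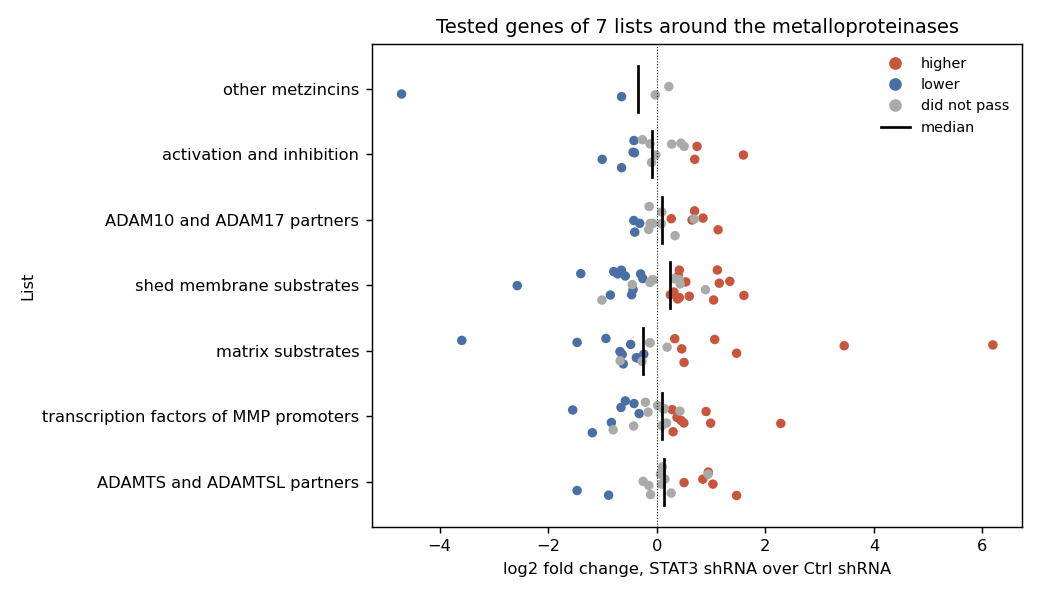
Log2 fold changes (horizontal axis) of the tested genes of 7 lists of related genes, red for genes that rose, blue for genes that fell, grey for those that did not pass, with a black line at each list's median. Every list but the other metzincins, where 2 of 4 genes fell, holds genes that rose and genes that fell.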

How the data were processed

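Per the file headers, the authors deposited raw counts per gene, without normalization, and FPKM per gene for 4 libraries, 2 per group. How reads were aligned and counted, on which build and with which use of strand, is not given in the sources used here. Columns named Ctrl and Si were matched to the sample titles, with Si read as STAT3 shRNA. Positions, transcript GC content and overlaps are from GENCODE 29 (GRCh38), where all 47 members were found. The symbol rule for members uses no measured value, but these families and the lists of related genes were picked with earlier results of these data known.

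Counts were fitted with edgeR 4.0.16 (R 4.3.3; TMM, filterByExpr, glmQLFit and glmQLFTest, group as the only term) over 15199 genes. The common dispersion was 0.00967. SEs are from the quasi-likelihood F. Named genes were STAT3, members that passed, TIMPs, members of at least 10 CPM and the 3 smallest p-values of each list; other genes named were chosen after their values were seen. Near-identical copies (blastn 2.17.0, 95% identity over 50% of the transcript) were found for ADAM21, ADAMTS7, MMP23A and MMP23B, none of which passed the test. Alternatives were other scalings and filters, a block for replicate number, each library left out in turn, DESeq2 1.42.0, limma-trend (3.58.1) on log2(FPKM + 1) and log2(FPKM + 0.1) and a threshold of 0.01. The GC offset was added after seeing the data. Counts were simulated for 15199 genes with the means, depths and common dispersion of this comparison. The test recovered 19 of 50 genes changed 1.5-fold, 43 of 50 changed 2-fold, 49 of 50 changed 4-fold and 48 of 50 changed 8-fold. It made 7 calls among 14999 unchanged genes. The simulated data held a far smaller share of changed genes than the 35.5% called here. They had the same dispersion for every gene and no difference along GC content, so these figures may not hold for the real libraries.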

Additional observations from a re-analysis of the deposited data

How the results depend on the processing

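Of the 17 members called, ADAM10, ADAMTSL4, MMP7, MMP15, TIMP2 and TIMP3 kept their direction and their side of the threshold in all 13 alternatives fitted. On FPKM with limma-trend, at pseudocounts of 1 and 0.1, all changed genes numbered 2535 and 2494 in place of 5396 (1349 and 1315 higher, 1186 and 1179 lower), and changed members 7 and 8 (4 and 4 higher, 3 and 4 lower). Calls in the lists were then 4 and 4 for activation and inhibition, 3 and 3 for ADAM10 and ADAM17 partners, 13 and 13 for shed membrane substrates, 9 and 8 for matrix substrates and 7 and 7 for transcription factors. At a threshold of 0.01, 2897 genes were called (1265 higher, 1632 lower), with 3 partners, 13 shed substrates and 8 transcription factors. With 1 library left out, calls ran from 2527 to 7291 for all genes (1128 to 3367 higher, 1399 to 3924 lower), 13 to 18 for members, 4 to 10 for activation and inhibition, 3 to 10 for partners, 10 to 24 for shed substrates, 11 to 18 for matrix substrates and 8 to 19 for transcription factors. When a STAT3 shRNA library was left out the lone one was assumed to vary like the Ctrl shRNA pair, and the reverse. The median log2 fold change of the members, 0.17, ran from 0.0113 to 0.20 with 1 library left out, and was -0.0183 without a low-count filter, 0.30 with the GC offset and 0.0630 and 0.23 with FPKM. Directions were followed through the alternatives for members that passed, TIMPs and members of at least 10 CPM. Of these, ADAM15 turned with the GC offset (0.0760) and ADAMTS16 with FPKM (-0.94 and -0.83). ADAMTS10 turned with the GC offset (0.30), FPKM (0.25 and 0.28) and 1 library left out (-0.24 to 0.11). TIMP1 turned with the GC offset (0.13) and 1 library left out (-0.24 to 0.10). Among other tested members, ADAM11 and MMP17 had opposite signs in FPKM and CPM. Their log2 ratios of means were -0.78 against 0.18 for ADAM11 and 0.25 against -0.30 for MMP17. The cause was not tested. With a filter of 1 CPM in 2 libraries ADAMTS6 and MMP13 were not tested. With the replicate number as a block, 17 members and 5447 genes were called, and all 17 were shared with the fit without it. Deviations of libraries with the same number correlated at -0.03, and nothing in the labels says that numbers pair the libraries. Depth limits the members under about 1 CPM, such as MMP13 and ADAMTS6.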
